A study of Mus musculus with 6 samples.

Results

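The genes described here encode the catalytic and partner subunits of ATP-dependent chromatin remodellers: the SWI/SNF complexes BAF and PBAF, the NuRD complex, the other CHD proteins, the ISWI group, the INO80, SRCAP and p400 ATPases, and the helicases Hells and Atrx. They were listed by name, with earlier results of these data known. They are read from the probesets annotated to 1 of 44 listed symbols alone, with the brightest probeset standing for a gene that had several. All 44 had such a probeset, out of 19938 genes measured.

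The cells were E14, a mouse embryonic stem cell line, grown on a layer of primary embryonic fibroblasts stopped from dividing with mitomycin C, in serum medium with leukaemia inhibitory factor. One group was left untreated, one received 0.5 mM valproic acid (VPA) and one 0.2 mM sodium butyrate (NaBu), for 16 h, with 2 arrays a group. Both compounds are short-chain fatty acids that inhibit histone deacetylases, and their doses differ here, so a difference between them is one between the treatments as given. All cells come from 1 line, and the labels number the arrays 1 and 2 in each group. Nothing in them says that the 2 arrays of a group hold RNA from different cultures, and the p-values then reflect the scatter among arrays, which may be technical. Values are log2 expression; a difference of 1 is a doubling. A gene's level is not set against another's, since probesets differ in brightness.

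Remodellers use ATP to slide, evict or exchange nucleosomes. Embryonic stem cells carry a BAF complex built on the ATPase Smarca4 (Brg1) rather than its paralogue Smarca2 (Brm), and exchange several subunits when they become neurons. NuRD joins a remodelling ATPase to the deacetylases Hdac1 and Hdac2, the enzymes that VPA and butyrate inhibit. INO80, SRCAP and p400 are tied to a variant of histone H2A, which SRCAP loads into nucleosomes.

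With VPA most remodeller genes stood slightly below the untreated level, Smarca2 stood above it, and with NaBu the same genes were spread around 0. The median log2 difference of the 44 genes was -0.13 for VPA, against 0.01 over all genes, and 0.02 for NaBu, against 0.01. The lowest was Ino80 at -0.61 and the highest Smarca2 at 0.64. No single gene passed the test. limma called 0 of the 44 at an adjusted p under 0.05 for VPA against control, as it called 0% of all genes, and 0 of 44 and 0% again with the replicate number as a block. At an unadjusted p under 0.05 it had 4 of the 44 (Smarca2, Mta3, Ino80 and Dpf2) against 4.92% of all genes, and with the block 6 of 44 against 13.2%. Without control replicate 1 or without VPA replicate 1 the unblocked count was 0 of 44.

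Differences were also taken within each replicate number, since arrays of the same number deviated together. With VPA 24 of the 44 genes were lower in both replicate 1 and replicate 2, where 28% of all genes were, and 8 were higher in both, where 32% were. Some of the 24 were barely lower in replicate 2, at -0.01 for Mta1, Smarcd1, Chd6 and Atrx and -0.00 for Arid2. The median was -0.15 in replicate 1 and -0.05 in replicate 2, and -0.07 when control replicate 1 was left out. A filter that kept the brighter genes, those whose mean was not under the median of all genes, left 41 of the 44, and 23 of these were lower in both, against 35.4% of the genes it kept. By group means 33 of the 44 lay below 0 with VPA, against 9370 of all 19938 genes and 5184 of the 9969 that the filter kept. Both VPA arrays lay below both untreated arrays for 16 of the 44 genes (15.6% of all genes) and above them for 4, namely Smarca2, Dpf3, Pbrm1 and Smarcc2 (19.1% of all genes). Of 8 stem cell markers, none at 0, 7 were lower in both replicates with VPA, with a median of -0.30, and Pou5f1, which encodes Oct4, stood at -0.64. Their summed linear intensity was 24766 to 27689 untreated, 21889 to 23031 with VPA and 23478 to 27274 with NaBu. The 5 neural markers, none at 0, summed to between 445 and 529 on all arrays but differed among themselves. Pax6 lay between 4.64 and 4.85, under the array medians of 5.01 to 5.09. With VPA Map2 stood at 0.69 and Nes at 0.41, both higher in both replicates, Pax6 at 0.02, Sox1 at -0.17 and Tubb3 at -0.28. Against NaBu all 5 stood above 0 with VPA (10016 of all 19938 genes), at a median of 0.27, 4 of them in both replicates (27.5% of all genes). Pax6 stood only at 0.01 and Tubb3 at 0.03. The median gene was Sox1, which was below control with VPA and further below it with NaBu (-0.44). The 11 fibroblast markers had a median of 0.04 with VPA and 0.14 with NaBu. The part of these markers in the remodeller values was not tested. In such bulk samples fewer cells of a type and less RNA per cell cannot be told apart.

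**Figure D1:**
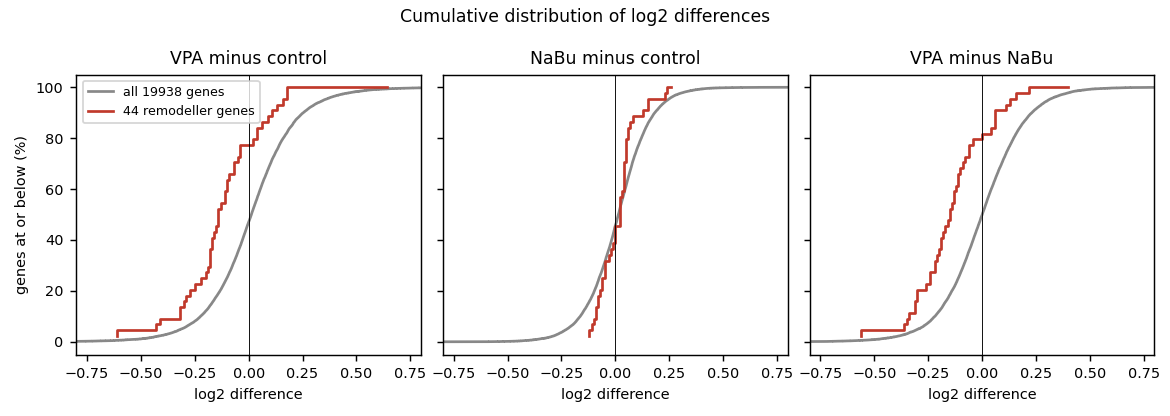
Cumulative share of genes (vertical axis, in percent) at or below each log2 difference (horizontal axis) for the 44 remodeller genes (red) and all 19938 genes (grey) in the 3 comparisons of group means. The red curve lies to the left of the grey one for VPA minus control (median -0.13 against 0.01) and VPA minus NaBu (-0.14 against 0.00), and the curves cross near 0 for NaBu minus control (0.02 against 0.01).

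The ATPases of BAF stood on opposite sides of 0 with VPA. Smarca2, which encodes Brm, had log2 values of 5.32 and 5.47 on the untreated arrays, 6.25 and 5.82 with VPA, and 5.48 and 5.79 with NaBu. Both VPA arrays were above every other array, replicate 1 by far the most, and both NaBu arrays were above both untreated ones by a small margin. The VPA difference of 0.64 (95% interval 0.18 to 1.1, a ratio of 1.56) split into 0.93 in replicate 1 and 0.35 in replicate 2, and it was 0.43 without VPA replicate 1. It did not pass in limma, with an adjusted p of 0.964, or 0.214 with the replicate block. For NaBu the difference was 0.24 (-0.21 to 0.70), with 0.09 without NaBu replicate 2 and 0.40 without NaBu replicate 1. Smarca2 is 1 of 3 of these genes, with Actl6b and Dpf3, whose mean level lay below the median of all genes.

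Smarca4, which encodes Brg1, the ATPase of the stem cell complex, stood at 9.82 and 9.62 untreated, 9.62 and 9.48 with VPA, and 9.74 and 9.84 with NaBu. The VPA arrays lay at or below the untreated range and the NaBu arrays in its upper part or just above it. Its VPA difference was -0.17 (-0.48 to 0.15), or -0.07 without control replicate 1, -0.10 without VPA replicate 2 and -0.27 without control replicate 2. Its NaBu difference was 0.07 (-0.24 to 0.39).

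**Figure D2:**
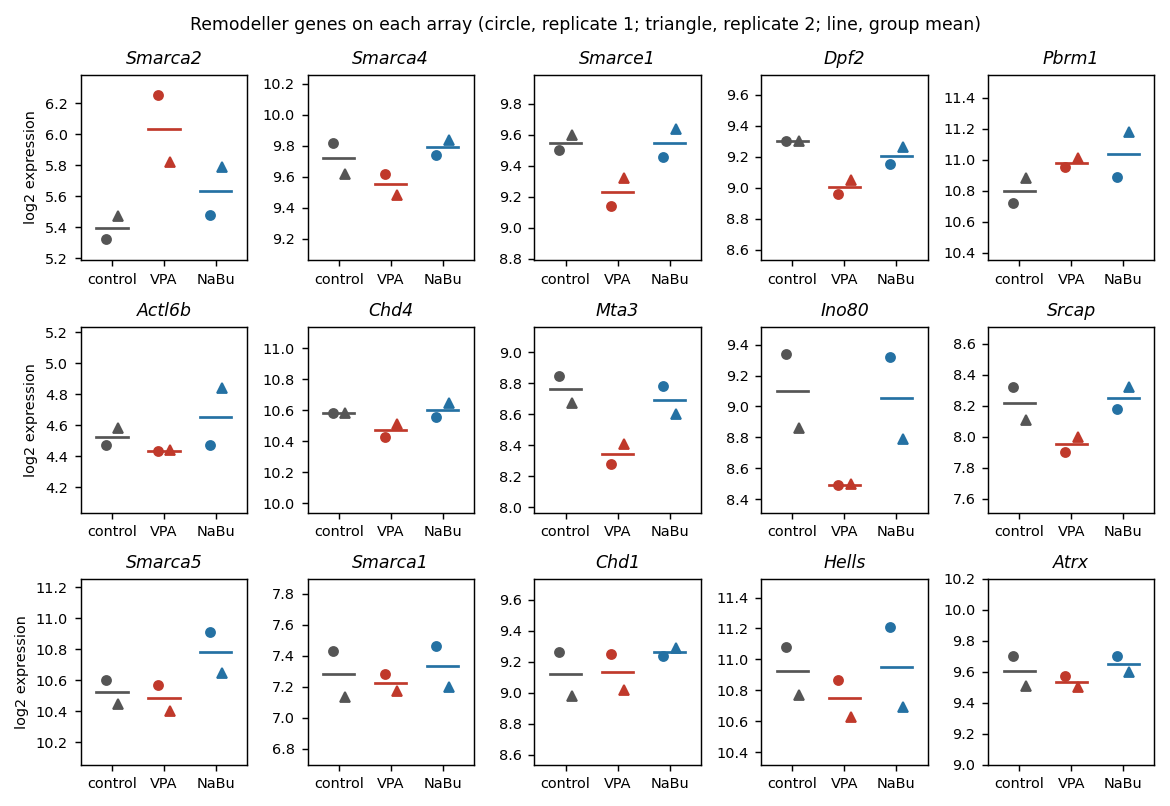
Log2 expression (vertical axis, 1.2 log2 units high in every panel) of 15 remodeller genes on each of the 6 arrays, in untreated (grey), VPA (red) and NaBu (blue) cells; circles are replicate 1, triangles replicate 2 and lines group means. Smarca2 is highest on the VPA arrays (6.25 and 5.82), whereas Ino80 (8.49 and 8.5), Mta3 (8.28 and 8.41), Smarce1 (9.14 and 9.32) and Dpf2 (8.96 and 9.05) are lowest there.

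The start-site windows of these paralogues are printed with those of Ino80 and Dpf2, because Smarca2, Ino80 and Dpf2 are the genes among the 5 largest VPA statistics that the RefSeq table (GRCm38.p6) holds, and Smarca4 is the counterpart of Smarca2. Each run is 300 bases, from 250 before to 50 after the annotated start, 5′ to 3′ on the gene's strand. Capitals mark matches on either strand to the GC box GGGCGG, the CCAAT box, the TATA box with letters TATAAA, the E-box with letters CACGTG, the YY1 core with letters ATGGCGG, the ETS core with letters CCGGAAG or the NRF1 core with letters GCATGCGC, whose matches may touch or overlap. The windows are Smarca2 at chr19:26604910-26605209, plus strand; Smarca4 at chr9:21615919-21616218, plus strand; Ino80 at chr2:119477638-119477937, minus strand; and Dpf2 at chr19:5912822-5913121, minus strand.
Smarca2: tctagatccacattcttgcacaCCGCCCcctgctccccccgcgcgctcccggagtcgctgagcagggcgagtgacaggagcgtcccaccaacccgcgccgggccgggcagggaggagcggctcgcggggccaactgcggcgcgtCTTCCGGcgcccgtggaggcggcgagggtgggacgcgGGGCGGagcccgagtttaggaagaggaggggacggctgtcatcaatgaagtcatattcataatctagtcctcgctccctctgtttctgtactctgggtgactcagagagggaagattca
Smarca4: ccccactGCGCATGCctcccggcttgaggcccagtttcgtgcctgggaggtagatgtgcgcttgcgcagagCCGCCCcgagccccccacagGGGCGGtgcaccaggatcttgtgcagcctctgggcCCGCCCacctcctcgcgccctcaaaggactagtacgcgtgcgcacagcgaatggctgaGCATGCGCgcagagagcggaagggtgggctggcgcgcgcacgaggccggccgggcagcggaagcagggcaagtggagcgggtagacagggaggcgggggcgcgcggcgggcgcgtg
Ino80: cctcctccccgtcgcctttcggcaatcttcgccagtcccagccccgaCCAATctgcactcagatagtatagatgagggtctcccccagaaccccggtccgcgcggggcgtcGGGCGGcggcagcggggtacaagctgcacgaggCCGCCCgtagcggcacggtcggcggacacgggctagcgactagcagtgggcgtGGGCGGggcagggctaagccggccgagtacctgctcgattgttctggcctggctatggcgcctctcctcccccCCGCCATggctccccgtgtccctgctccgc
Dpf2: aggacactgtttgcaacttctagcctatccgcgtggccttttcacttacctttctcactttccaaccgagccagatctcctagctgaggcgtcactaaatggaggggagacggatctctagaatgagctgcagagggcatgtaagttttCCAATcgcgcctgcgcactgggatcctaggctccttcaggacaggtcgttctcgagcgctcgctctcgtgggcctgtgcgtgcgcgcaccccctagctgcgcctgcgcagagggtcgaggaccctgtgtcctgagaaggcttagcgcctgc

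All 4 windows are rich in CpG, with 29 CpG pairs in Smarca2, 33 in Smarca4, 32 in Ino80 and 20 in Dpf2. GC boxes number 2 in Smarca2, 3 in Smarca4 and 3 in Ino80, and Dpf2 holds a CCAAT box with no GC box. Smarca2 has an ETS core, Smarca4 has 2 NRF1 cores, and Ino80 has a CCAAT box and, beginning at base 20 after the start, a YY1 core. YY1 is a DNA-binding partner of the INO80 complex. The table held windows for 35 of the 44 genes, 41 windows in all. A GC box stood in 38 of the 41 (92.7%), against 49.2% of the 19177 windows of genes on the arrays and 35.7% of all 32851. The other shares, given for the 41 windows, for genes on the arrays and for all windows, were 36.6%, 37.4% and 37.4% for CCAAT, 4.9%, 11.5% and 13.6% for TATAAA, and 4.9%, 8.2% and 7.2% for the E-box. They were 9.8%, 5.5% and 4.1% for the YY1 core, 12.2%, 12.1% and 8.9% for the ETS core, and 9.8%, 3.8% and 2.7% for the NRF1 core. The median window of these genes had 29 CpG pairs, against 15 for genes on the arrays. These matches are descriptions of the letters, and windows of 1 gene can overlap.

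The shared core of BAF and PBAF stood lower with VPA in 7 of 9 genes (9370 of all 19938), in 6 of them in both replicates (28% of all genes), and its median was -0.15. Smarce1, which encodes the HMG-box subunit BAF57, had 9.50 and 9.60 untreated, 9.14 and 9.32 with VPA, and 9.46 and 9.64 with NaBu. The VPA arrays did not overlap with the other 4. Its difference was -0.32 (-0.64 to 0.00) for VPA and -0.00 (-0.32 to 0.32) for NaBu, and its 3 probesets ranged from -0.33 to -0.26 for VPA.

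Smarcb1, the SNF5 subunit known as a tumour suppressor, had 9.36 and 8.94 untreated, 8.84 and 8.60 with VPA, and 9.20 and 8.86 with NaBu. In each group replicate 2 was the lower, and within each replicate VPA was the lowest. The VPA difference was -0.43 (-0.91 to 0.05), with -0.52 in replicate 1 and -0.34 in replicate 2, and its adjusted p in limma was 0.964, or 0.202 with the replicate block. The scaffold Smarcc1 (BAF155) stood at -0.15 and its paralogue Smarcc2 (BAF170) at 0.16 for VPA, with intervals of -0.54 to 0.25 and -0.19 to 0.50. Among the Smarcd paralogues Smarcd1, the main form in stem cells, stood at -0.22, Smarcd2 at -0.10 and Smarcd3, known from heart and muscle, at 0.11. Smarcd1 differed by -0.43 in replicate 1 but -0.01 in replicate 2.

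The actin-related subunits Actl6a, of dividing cells, and Actl6b, of neurons, stood at -0.18 and -0.09 for VPA. Actl6b had 4.47 and 4.58 untreated, 4.43 and 4.44 with VPA, and 4.47 and 4.84 with NaBu. A single NaBu array, replicate 2, was above the rest. Its NaBu difference was 0.13 (-0.24 to 0.50), or -0.06 without that array, and its mean level is among the low ones.

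Subunits that set BAF apart from PBAF were mixed with VPA. Of the 9, 6 stood below 0 (9370 of all 19938 genes). Lower in both replicates were 2, Dpf2 and Arid2 (28% of all genes), and Arid2 was so at -0.27 in replicate 1 but -0.00 in replicate 2. Dpf2, the double PHD finger subunit of dividing cells, had 9.30 and 9.30 untreated, 8.96 and 9.05 with VPA, and 9.15 and 9.26 with NaBu. The untreated arrays were the highest and the VPA arrays the lowest, with no overlap between the 3 groups. The VPA difference was -0.30 (-0.57 to -0.02), with -0.34 and -0.25 in the replicates, and the NaBu difference was -0.09 (-0.37 to 0.19). Its paralogues Dpf1 and Dpf3, which take its place in neurons, stood at 0.09 and 0.18 for VPA, with -0.22 to 0.41 and -0.13 to 0.49 as intervals.

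The DNA-binding subunits Arid1a and Arid1b of BAF stood at -0.29 and -0.32 for VPA, but these means came from replicate 1. Without control replicate 1 the value of Arid1a turned to 0.13. Arid1a differed by -0.62 there and by 0.04 in replicate 2, with 9.39 and 8.55 on the untreated arrays, and Arid1b differed by -0.63 and 0.00. Arid2, their counterpart in PBAF, stood at -0.14, Phf10 of PBAF at -0.13 and Ss18 of BAF at -0.04.

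Pbrm1, the PBAF subunit with a row of bromodomains that bind acetylated histones, had 10.72 and 10.88 untreated, 10.95 and 11.01 with VPA, and 10.89 and 11.18 with NaBu. Every treated array was above both untreated ones. The differences were 0.18 (-0.17 to 0.52) for VPA and 0.23 (-0.11 to 0.58) for NaBu. Without control replicate 1 the VPA value was 0.10, and the NaBu value was 0.09 without NaBu replicate 2 and 0.38 without NaBu replicate 1. Its 3 probesets disagreed, with a range of -0.08 to 0.18 for VPA and -0.04 to 0.23 for NaBu, and the brightest gave the highest value in both.

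**Figure D3:**
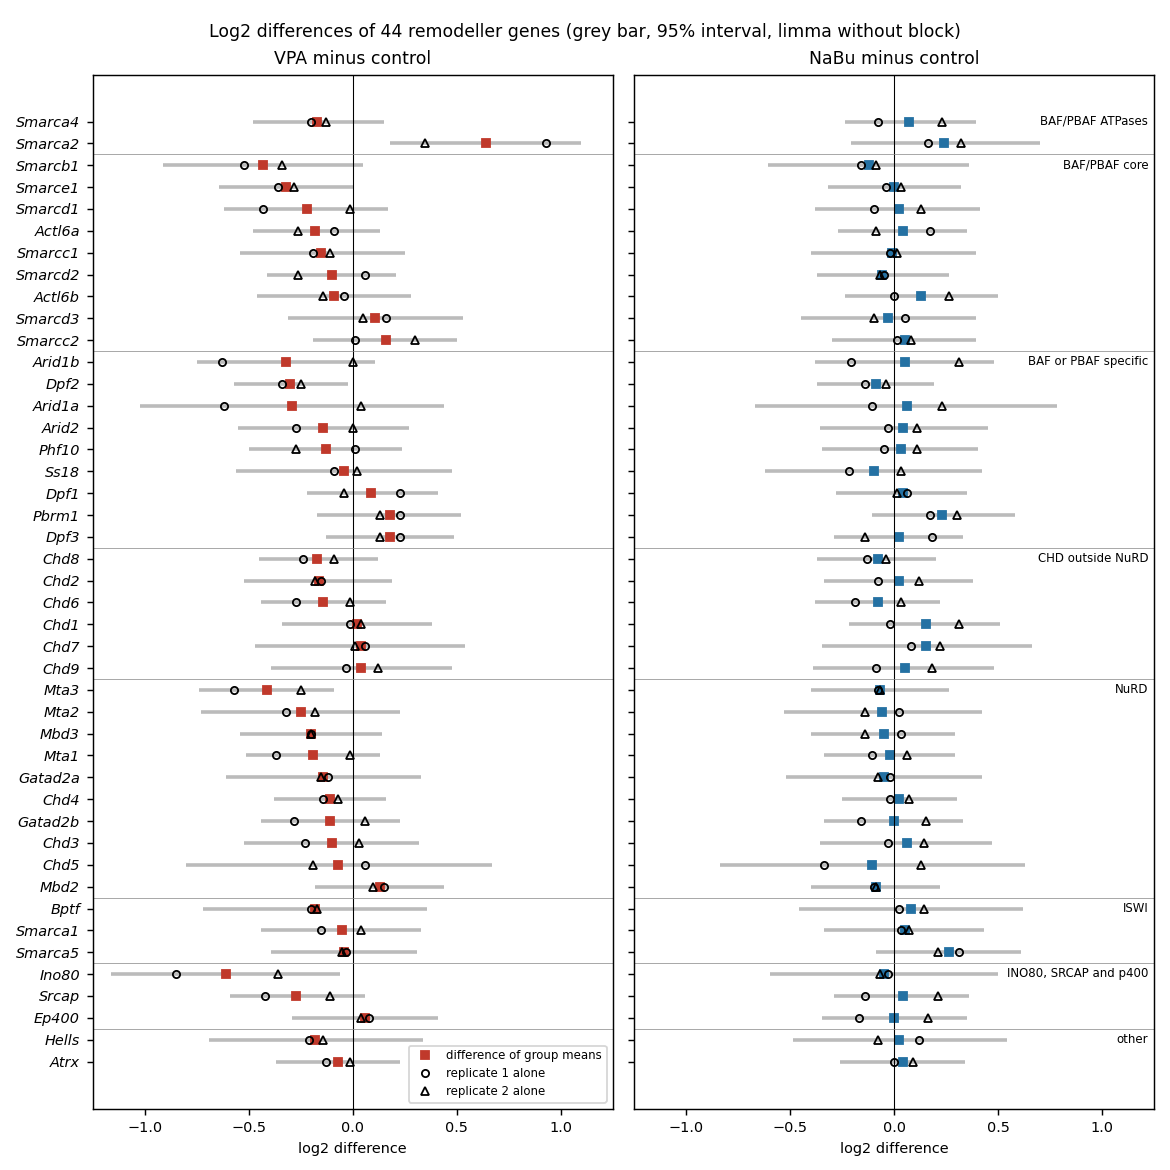
Log2 difference from untreated cells (horizontal axis) of each of the 44 remodeller genes (rows, grouped by complex) with VPA (left) and NaBu (right): squares are differences of group means, grey bars their 95% intervals from limma without a block, circles and triangles the differences within replicate 1 and within replicate 2. With VPA 33 squares lie below 0 (9370 of all 19938 genes did), from Ino80 at -0.61, and Smarca2 stands alone at 0.64. With NaBu the squares lie between -0.12 and 0.26.

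In NuRD 9 of 10 genes stood below 0 with VPA (9370 of all 19938), 6 of them in both replicates (28% of all genes), at a median of -0.12. Mta3, 1 of the scaffolds that hold the deacetylases, was the lowest. It had 8.85 and 8.67 untreated, 8.28 and 8.41 with VPA, and 8.78 and 8.60 with NaBu, so that the VPA arrays lay below the other 4. Its difference was -0.41 (-0.74 to -0.09) for VPA and -0.07 (-0.40 to 0.26) for NaBu. A second Mta3 probeset, of lower mean signal, stood at 0.18 for VPA, and the mean of both gave -0.12, so the value rests on the brighter probeset. The other scaffolds Mta1 and Mta2 stood at -0.19 and -0.25, and Mta1 differed by -0.37 in replicate 1 but -0.01 in replicate 2.

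Chd4, the main ATPase of NuRD, had 10.58 and 10.58 untreated, 10.43 and 10.51 with VPA, and 10.56 and 10.65 with NaBu. The VPA arrays were below the others by a narrow margin, at a difference of -0.11 (-0.38 to 0.16), or -0.07 without VPA replicate 1. Its paralogues Chd3 and Chd5 stood at -0.10 and -0.07. Mbd3, the NuRD subunit that restrains expression of pluripotency genes, stood at -0.20 in both replicates (-0.54 to 0.14), and Mbd2, which binds methylated DNA and occupies the same place in the complex, was the 1 NuRD gene above 0, at 0.13 (-0.18 to 0.44). Gatad2a and Gatad2b, which join the ATPase to the rest, stood at -0.14 and -0.11.

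CHD genes outside NuRD lay near 0 with VPA, 3 of 6 on each side, though median centring of the arrays put Chd1 and Chd7 just below 0. Chd1, which keeps stem cell chromatin open, had 9.26 and 8.98 untreated, 9.25 and 9.02 with VPA, and 9.24 and 9.29 with NaBu. Replicate 2 was the lower in the first 2 groups and not with NaBu, and the differences were 0.02 (-0.34 to 0.38) for VPA and 0.15 (-0.22 to 0.51) for NaBu, the latter 0.01 without control replicate 2 and 0.29 without control replicate 1. Chd8 and Chd2 stood at -0.17 and -0.16 for VPA, lower in both replicates, Chd6 at -0.14 and Chd9 at 0.04. Chd6 differed by -0.27 in replicate 1 but -0.01 in replicate 2. The 2 Chd6 probesets differed, at -0.14 and 0.00, and their mean was -0.07. Chd7, whose loss causes a developmental syndrome in humans, is read by 30 probesets. For VPA these ranged from -0.30 to 0.24 with a median of 0.06, and 10 lay below 0. For NaBu they ranged from -0.04 to 0.36 with a median of 0.15, and 2 lay below 0. The probesets read the same RNA on the same arrays and are not replicates. The brightest stood at 0.04 for VPA, but at -0.155 without control replicate 2 and -0.184 without VPA replicate 1. For NaBu it stood at 0.15 (-0.35 to 0.66), but at -0.038 without control replicate 2.

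**Figure D4:**
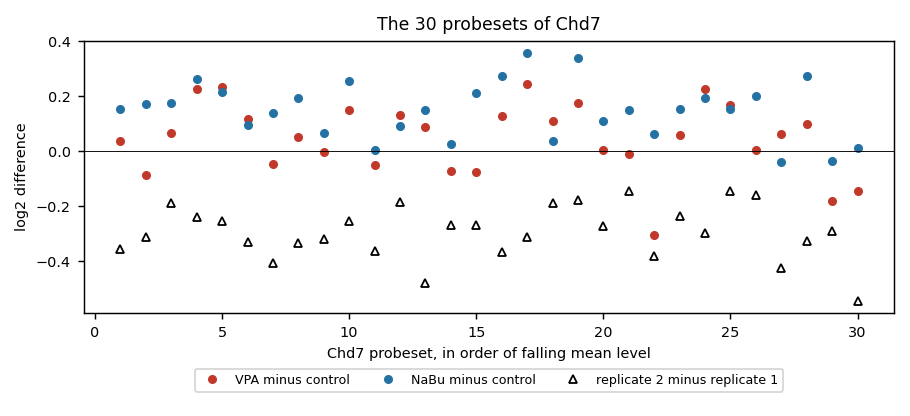
Log2 difference (vertical axis) of the 30 Chd7 probesets in order of falling mean level (horizontal axis): VPA minus control (red), NaBu minus control (blue) and replicate 2 minus replicate 1 (triangles). VPA values straddle 0 (median 0.06), 28 of the 30 NaBu values are above it, and all 30 replicate differences are below it, from -0.54 to -0.14. All treatment differences share the same untreated arrays.

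In the ISWI group Smarca5, the ATPase SNF2H that spaces nucleosomes, had 10.60 and 10.45 untreated, 10.57 and 10.40 with VPA, and 10.91 and 10.65 with NaBu. Both NaBu arrays were above the other 4. Its difference was 0.26 (-0.09 to 0.61) for NaBu, with 0.31 and 0.21 in the replicates and 0.13 without NaBu replicate 1, and -0.04 (-0.39 to 0.31) for VPA. The adjusted p for NaBu was 1.00 in limma, and 0.994 with the replicate block. Smarca1, its paralogue SNF2L, had 7.43 and 7.13 untreated, 7.28 and 7.17 with VPA, and 7.46 and 7.20 with NaBu, so that the groups overlapped. Bptf, the reader subunit of the NURF complex, stood at -0.18 for VPA, turning to 0.04 without control replicate 1 and 0.03 without VPA replicate 2, and at 0.08 for NaBu.

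Ino80, the ATPase of its complex, which is needed for self-renewal of stem cells, had 9.34 and 8.86 untreated, 8.49 and 8.5 with VPA, and 9.32 and 8.79 with NaBu. The VPA arrays agreed closely and lay below all others, while the other groups spread by replicate number. The VPA difference was -0.61 (-1.16 to -0.06, a ratio of 0.657), with -0.85 in replicate 1 and -0.36 in replicate 2, and it was -0.37 without control replicate 1. Its adjusted p in limma was 0.964, or 0.202 with the replicate block, and its NaBu difference was -0.05 (-0.60 to 0.50). Srcap, which loads a histone H2A variant, had 8.32 and 8.11 untreated, 7.90 and 8.0 with VPA, and 8.18 and 8.32 with NaBu. The VPA arrays were again the lowest, at a difference of -0.27 (-0.59 to 0.06), or -0.16 without control replicate 1. Ep400, the ATPase p400 with the same substrate, stood at 0.06.

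Hells, the helicase LSH that aids DNA methylation of repeats, had 11.08 and 10.77 untreated, 10.87 and 10.63 with VPA, and 11.21 and 10.69 with NaBu. The replicate numbers spread these values more than the treatments did, and the VPA difference was -0.18 (-0.69 to 0.34), with values from -0.33 without control replicate 2 to -0.02 without control replicate 1. Atrx, which loads a histone H3 variant at repeats and telomeres, had 9.70 and 9.51 untreated, 9.57 and 9.50 with VPA, and 9.70 and 9.60 with NaBu. Each treated group overlapped with the untreated one, and the VPA arrays lay just below both NaBu arrays. The differences from control were -0.07 (-0.37 to 0.23) for VPA and 0.04 (-0.26 to 0.34) for NaBu.

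For NaBu against control limma called 0 of the 44 genes and 0% of all genes, without and with the block. At an unadjusted p under 0.05 there were 0 of 44 against 1.56% of all genes, and with the block 1, Smarca5, against 4.59%. Of the 44, 8 were lower in both replicates (23.1% of all genes) and 8 higher in both (29.1%). Groups did not overlap for 1 lower gene, Dpf2 (11.2% of all genes), and 4 higher ones, Dpf1, Pbrm1, Smarca2 and Smarca5 (12.7%). The differences ran from -0.12 for Smarcb1 to 0.26 for Smarca5. The widest intervals, those of Chd5 (-0.84 to 0.63) and Arid1a (-0.67 to 0.78), leave room for differences of the size seen with VPA. The others were narrower. That of Ino80, -0.60 to 0.50, ended just short of its VPA difference of -0.61, while that of Smarca2, -0.21 to 0.70, held its VPA difference of 0.64. VPA and NaBu were each compared with the same untreated arrays.

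The treatments were then compared directly. VPA stood below NaBu in 35 of the 44 genes, against 9922 of all 19938, with a median of -0.14 against 0.00 over all genes. Of the 44, 30 were lower in both replicates (28.6% of all genes) and 5 higher in both (27.5%). Of the 41 genes that passed the filter on level, 34 stood below NaBu, against 5641 of 9969 such genes. In both replicates 29 were lower, against 36.6% of such genes. limma called 0 of 44 and 0% of all genes, without and with the block. At an unadjusted p under 0.05 there were 2, Ino80 and Mta3, against 3.63%, and with the block 7 against 10.8%. Groups did not overlap for 16 lower genes (14.6% of all genes) and for 4 higher ones, Smarca2, Mbd2, Smarcc2 and Dpf3 (16%).

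Ino80 had the lowest difference between the treatments, -0.56 (-1.11 to -0.01), with -0.82 and -0.29 in the replicates and -0.30 without NaBu replicate 1. Mta3 stood at -0.34 (-0.67 to -0.02), but its second probeset stood at 0.31, so the value rests on the brighter probeset. Smarce1 stood at -0.31 (-0.63 to 0.01), Srcap at -0.30 (-0.62 to 0.02) and Smarca5 at -0.30 (-0.65 to 0.05), or -0.17 without NaBu replicate 1. Arid1b and Arid1a stood at -0.36 (-0.79 to 0.07) and -0.35 (-1.07 to 0.38), and Smarca4 at -0.24 (-0.56 to 0.07). Smarca2 stood at 0.40 (-0.06 to 0.85), but nearly all of it came from replicate 1 (0.76), with 0.03 in replicate 2, and it was 0.18 without VPA replicate 1. Mbd2 stood at 0.22 and Mbd3 at -0.15. All of the adjusted p-values of these genes in limma were 0.998, and with the block the smallest of the 44 was 0.362.

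Arrays with the same number shared deviations, so the replicate number was compared as well. In a limma model with treatment and replicate number, 7 of the 44 fell in replicate 2 relative to replicate 1 at an adjusted p under 0.05 (5.56% of all genes) and 0 were higher (6.04%). The 7 were Arid1a (-0.50), Bptf (-0.40), Ss18 (-0.37), Chd7 and Hells (each -0.36), and Gatad2a and Smarcb1 (each -0.33). Their adjusted p-values ran from 0.0258 for Bptf to 0.0496 for Smarcb1. Over all genes the same model called 2313, but 1370 without either control array and 716 without either NaBu array. Chd5, a NuRD ATPase of the nervous system, stood at 0.50 (0.18 to 0.81) with an adjusted p of 0.0541. The 11 fibroblast markers were all higher in replicate 2, at a median of 0.40, and the summed linear intensity of the list was 6316 to 7489 on the replicate 1 arrays and 9347 to 11037 on the replicate 2 arrays. By treatment it was 7489 and 9347 untreated, 6316 and 10331 with VPA, and 7097 and 11037 with NaBu. None of the markers was at 0, which without detection calls does not show that each was detected. The lowest, Lum, lay between 2.93 and 3.49, under the array medians of 5.01 to 5.09. Their part in the replicate difference was not tested.

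**Figure D5:**
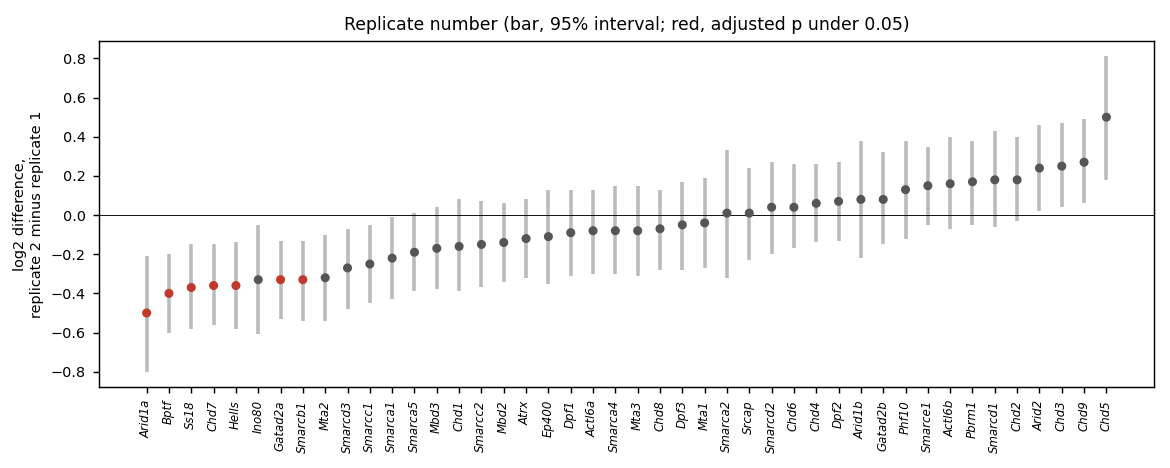
Log2 difference of replicate 2 minus replicate 1 (vertical axis) for each of the 44 remodeller genes (horizontal axis, ordered by value), with 95% intervals from limma as bars; red points passed an adjusted p of 0.05. The 7 red genes, from Arid1a at -0.50 to Smarcb1 at -0.33, are all lower in replicate 2, and Chd5 is the highest at 0.50.

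Further subunits and SNF2-type ATPases, a list of 68 measured genes outside the 44, were also mostly below 0 with VPA. Of these, 45 were lower in both replicates (28% of all genes) and 7 higher in both (32%), with a median of -0.16 against 0.01 over all genes. limma called 0, and an unadjusted p under 0.05 was reached by 8 of 68 (4.92% of all genes), or by 14 with the block (13.2%). For NaBu 23 were lower (23.1% of all genes) and 14 higher in both (29.1%), with a median of -0.01 against 0.01. Again 0 were called, and 0 had an unadjusted p under 0.05 (1.56% of all genes), or 1 with the block (4.59%). Between the treatments 41 were lower (28.6% of all genes) and 6 higher in both (27.5%), with a median of -0.11 against 0.00. None was called by limma (0 of 68), while 4 had an unadjusted p under 0.05 (3.63% of all genes), or 14 with the block (10.8%). By class the count below 0 with VPA was 8 of 11 for BAF (median -0.03), 7 of 9 for NuRD (-0.23) and 10 of 12 for INO80 (-0.13). It was 12 of 14 for SRCAP and TIP60-p400 (-0.18) and 8 of 13 for the other SNF2-type ATPases (-0.09). The partners of ISWI ATPases stood below 0 in 9 of 9 (-0.22), though Baz1a only at -0.02 (-1.09 to 1.05). Over all genes 9370 of 19938 were below 0. Baz2b, a bromodomain partner, stood at -0.57 (-0.93 to -0.22) for VPA, with -0.78 in replicate 1 and -0.37 in replicate 2. For VPA against NaBu it stood at -0.67 (-1.03 to -0.32). Sall1, a zinc-finger protein that recruits NuRD, stood at -0.77 (-1.29 to -0.25) for VPA and -0.70 (-1.22 to -0.18) for VPA against NaBu. Its VPA difference split into -1.21 in replicate 1 and -0.32 in replicate 2. Meaf6, of the TIP60 complex, stood at -0.52 (-0.93 to -0.11) for VPA, with -0.67 and -0.37 in the replicates. Bicral, of a BAF variant without Arid subunits, stood at -0.55 (-0.99 to -0.11) for VPA against NaBu. The largest statistics for NaBu were Bicra at -0.33, Ino80b at -0.21 and Actr6 at 0.24. The deacetylases Hdac1 and Hdac2, which NuRD carries, stood at 0.11 and -0.09 for VPA.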

How the data were processed

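The deposited values are log2 expression per probeset, which the authors obtained by RMA; per the submitters' processing notes the program was Affymetrix Expression Console 1.1. RMA settings and a genome build were not given in the sources used here. RMA evens out the arrays' distributions, and array medians lay between 5.01 and 5.09. Of 35556 probesets, 21789 carry 1 symbol, 1621 several and 12146 are not listed in the annotation; 19938 genes remained. The tests came from limma 3.58.1 (R 4.3.3): 1 linear model for every gene, moderated by eBayes without a trend and adjusted by Benjamini-Hochberg over all genes, checked on simulated data. This leaves 3 residual degrees of freedom, and 2 with the replicate number as a block. Precision is limited by the number of arrays. A permutation test of 2 against 2 cannot go below 0.333, so none was used.

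Deviations of same-numbered arrays from their group means correlated over all genes. The r was 0.558 between control and VPA arrays, 0.693 between control and NaBu and 0.567 between VPA and NaBu. Differences were therefore also taken within replicate numbers and fitted with a block. This pairing is read from the values, not the labels. Treatment intervals in the text come from the fit without the block. With the block they excluded 0 for 6 of the 44 genes with VPA and for 1, Smarca5, with NaBu (0.01 to 0.50). For VPA the blocked interval was -0.68 to -0.18 for Smarcb1 and -0.56 to -0.07 for Smarce1. Array values are given for 9 ATPases and for the 5 genes with the largest statistic in each comparison. Those of Smarcb1, and of Arid1a on the untreated arrays only, were added after their values were seen. From the other remodeller genes 3 are named per comparison, and Hdac1, Hdac2 and Baz1a besides. The 44 genes and all lists were chosen with earlier results of these data known. Of 69 further remodeller symbols, 68 had a probeset. Alternatives were median centring, quantile normalization, a filter on dim genes, the mean of probesets, a trended prior and leaving out each array.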

Additional observations from a re-analysis of the deposited data

How the results depend on the processing

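limma called 0 genes for each treatment comparison in every alternative on all 6 arrays, fitted without the block, and in the main run with the block. The replicate block changed no call and left the medians of the 44 genes at -0.13 for VPA, 0.02 for NaBu and -0.14 for VPA against NaBu; at an unadjusted p under 0.05 it called 2636 genes for VPA against 981 without it, 916 against 311 for NaBu, and 2150 against 724 for VPA against NaBu. Median centring turned Chd1 (-0.019) and Chd7 (-0.001) for VPA and gave a median of -0.18 for VPA against NaBu. Quantile normalization turned Chd9 for VPA against NaBu (0.022) and gave a median of -0.10 there, and the mean of probesets gave -0.14. With 1 array left out, the lone array of its group is assumed to vary like the others. The median for VPA then ran from -0.17 to -0.07, the lowest size without control replicate 1, for NaBu from -0.07 to 0.08 and for VPA against NaBu from -0.15 to -0.10. Of the 44 genes, 0 kept an unadjusted p under 0.05 for VPA without control replicate 1 or without VPA replicate 1. The largest values whose sign turned were Arid1a for VPA (-0.290 to 0.130 without control replicate 1), Hells for VPA against NaBu (-0.197 to 0.061 without NaBu replicate 1), Mta2 there (-0.191 to 0.043, same array), and Bptf for VPA (-0.182 to 0.040 without control replicate 1 and 0.027 without VPA replicate 2). Among the genes with values given on every array by rule, the lowest and highest values were as follows. For VPA the sign turned in Chd1 (-0.123 to 0.158), Smarca1 (-0.203 to 0.098), Smarca5 (-0.124 to 0.046) and Atrx (-0.163 to 0.023). For NaBu the sign turned in Smarca4 (-0.029 to 0.176), Smarce1 (-0.092 to 0.083), Actl6b (-0.056 to 0.313), Chd4 (-0.024 to 0.073), Mta3 (-0.165 to 0.021), Smarca1 (-0.102 to 0.198), Ino80 (-0.309 to 0.212), Srcap (-0.073 to 0.143), Hells (-0.237 to 0.279) and Atrx (-0.051 to 0.135). For VPA against NaBu the sign turned in Pbrm1 (-0.199 to 0.087), Smarca1 (-0.231 to 0.030) and Hells (-0.455 to 0.061). Up to 8 of the 44 signs turned for VPA, 20 for NaBu and 8 for VPA against NaBu; the cause was not tested. Genes that differed with the replicate number were 2313, and 716 to 2434 with 1 array left out (716 without either NaBu array, 1370 without either control array), which takes that pair out of the contrast. With 2 arrays a group and no detection calls, small differences and dim genes such as Smarca2, Actl6b and Dpf3 are measured loosely.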
